A study of Mus musculus with 28 samples.

Results

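Acetylation of histone H2B at lysine 120 (H2BK120ac) in the group coded ED was set against acetylation of histone H3 at lysine 27 (H3K27ac) in solvent-treated cells, coded EtOH. The comparison used the regions shared by the tables of both marks, joined on chromosome, start and end, which kept 127646 of 127646 regions. CUT&Tag was used for both marks: an antibody bound to chromatin directs a transposase that cuts and tags the DNA beside it. The ED group had 3 samples and the EtOH group had 2, of 28 samples in the series. All were mouse embryonic stem cells (mESCs) of the genotype FOXD3-iKO, an inducible knockout of the forkhead factor FOXD3, grown in L2i medium with a treatment time of 24 h. In this system tamoxifen (4HT) induces the loss of FOXD3 and the solvent does not. The meaning of ED, and of the other H2BK120ac codes ET, TD and TT, is not stated in the labels, so whether ED cells kept FOXD3 is not known here. The H3K27ac antibody was Abcam ab4729, and the labels name the other antibody only as H2BK120ac.

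H3K27ac marks the nucleosomes of active promoters and enhancers, where CBP and p300 place it. H2BK120 lies in the C-terminal helix of H2B, and the same lysine can carry either an acetyl group or the ubiquitin that accompanies transcribed gene bodies. Acetylation of this lysine has been mapped in human cells to active promoters and enhancers. Promoters of mESC genes are for the most part rich in CpG, and enhancers for the most part are not.

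The promoters below show the 2 kinds of TSS regions that the results turn on. Klf2, Zfp42 and Ezh2 had a TSS region in the top 10% of both marks, and Rpl13 and Gapdh had one in the top 10% of H3K27ac EtOH only. Klf2 and Zfp42 encode factors of naive pluripotency, Ezh2 encodes the methyltransferase of Polycomb repressive complex 2, Rpl13 encodes a ribosomal protein and Gapdh a glycolytic enzyme. Each sequence is the 300 bases from 250 before to 50 after a start site that lies inside the region, from RefSeq on GRCm38.p6, with CpG dinucleotides in capitals.
Klf2, chr8:72318812-72319111, + strand: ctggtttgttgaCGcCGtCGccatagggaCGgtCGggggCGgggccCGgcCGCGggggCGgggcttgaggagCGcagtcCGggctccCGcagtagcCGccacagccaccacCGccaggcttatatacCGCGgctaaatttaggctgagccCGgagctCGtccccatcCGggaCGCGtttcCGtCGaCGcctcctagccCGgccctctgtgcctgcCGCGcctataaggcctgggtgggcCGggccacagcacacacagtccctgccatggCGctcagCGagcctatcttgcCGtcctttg
Zfp42, chr8:43306960-43307259, - strand: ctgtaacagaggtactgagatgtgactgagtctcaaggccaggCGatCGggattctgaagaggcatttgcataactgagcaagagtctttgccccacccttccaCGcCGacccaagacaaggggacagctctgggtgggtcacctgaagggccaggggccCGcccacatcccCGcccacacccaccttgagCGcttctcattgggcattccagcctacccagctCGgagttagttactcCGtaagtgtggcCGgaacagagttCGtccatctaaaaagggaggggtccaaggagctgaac
Ezh2, chr6:47594981-47595280, - strand: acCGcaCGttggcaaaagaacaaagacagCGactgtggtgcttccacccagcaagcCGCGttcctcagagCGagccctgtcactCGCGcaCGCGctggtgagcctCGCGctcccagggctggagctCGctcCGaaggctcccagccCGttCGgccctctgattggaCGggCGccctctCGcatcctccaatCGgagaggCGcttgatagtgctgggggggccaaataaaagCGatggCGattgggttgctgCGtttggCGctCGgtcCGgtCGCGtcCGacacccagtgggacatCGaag
Rpl13, chr8:123102100-123102399, + strand: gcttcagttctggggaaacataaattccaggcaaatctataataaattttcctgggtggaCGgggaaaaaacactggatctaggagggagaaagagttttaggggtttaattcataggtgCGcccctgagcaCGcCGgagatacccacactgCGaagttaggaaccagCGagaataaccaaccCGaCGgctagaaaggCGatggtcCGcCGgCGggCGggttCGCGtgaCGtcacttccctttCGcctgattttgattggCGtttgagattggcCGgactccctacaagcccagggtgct
Gapdh, chr6:125165724-125166023, - strand: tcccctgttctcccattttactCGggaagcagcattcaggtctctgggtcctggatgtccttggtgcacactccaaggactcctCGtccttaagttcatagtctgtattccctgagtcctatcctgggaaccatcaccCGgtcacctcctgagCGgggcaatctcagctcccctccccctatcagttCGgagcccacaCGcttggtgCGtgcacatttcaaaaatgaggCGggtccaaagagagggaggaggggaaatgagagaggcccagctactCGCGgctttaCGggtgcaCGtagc
These stretches held 32 CpG in Klf2, 11 in Zfp42, 31 in Ezh2, 19 in Rpl13 and 12 in Gapdh, beside a median of 21 over the TSS regions with a sequence.

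Each group was deposited as 1 column of merged coverage, so no spread between samples can be given, no test was possible and all comparisons are descriptions. The most frequent value in a column, 0.445 in ED and 0.165 in EtOH, was taken to be that of 1 fragment. H2BK120ac values reach down to 0.25 of it, so this unit is uncertain for ED, and the ED fragment numbers, depth and intervals rest on it. On the CPM scale this implies 2247696 fragments in ED and 6076552 in EtOH. ED had coverage in 61.3% of the regions and EtOH in 76.9%. A pile-up of 5 fragments was reached in 2378 regions in ED and in 14487 in EtOH. Because the tables were normalised separately, values were turned into percentile ranks within a column, with a region without coverage counted as 0. The top 10% began at a value of 0.947 in ED, about 2.13 fragments, and at 0.918 in EtOH, about 5.58 fragments. A signal is a mean over the cells of a sample, so that fewer cells with a mark and less of the mark per cell cannot be told apart.

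The label of the cells was checked against marker lists. By median, regions of pluripotency genes ranked high in both marks, and promoters of fibroblast feeder genes did not. The strongest promoter region of 16 naive pluripotency genes had a median percentile of 81.3 in ED and 90.7 in EtOH, beside 59.2 and 73.3 over the promoters of all 13559 genes with one. The 9 feeder genes with a promoter region had medians of 59.2 in ED, the same as over all genes, and 48.5 in EtOH. None was in the top 10% of ED (9.14% of all promoters) or of EtOH (20.1%). For that count, 9 genes are too few to be set apart from the background. Of the 12 feeder genes with a distal region, 3 were in the ED top 10% (21.8% of all genes), 2 in the EtOH top 10% (18.7%) and 1 in both (12.9%), which is near the background. The last was Col3a1, a collagen gene, with 2.84 in ED and 1.91 in EtOH at a region 46307 bp from its TSS. Dcn, a matrix proteoglycan of fibroblasts, had no coverage in either mark at its promoter or its strongest distal region. The percentile 59.2 is that of a region holding 1 ED fragment, so many ED medians rest on that value.

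Over all regions the ED and EtOH ranks rose together. Spearman's rho was 0.494 across 127646 regions, which share their bounds and differ in width. For scale, rho was 0.482 between ED and ET, which share antibody and near-equal depth, and 0.687 between EtOH and 4HT. The rho of ED was 0.493 with 4HT, near that with EtOH, and 0.365 with TD of its own mark. ED was covered in 68.7% of the regions covered in EtOH and in 36.8% of those without EtOH coverage. Only 8.50% of regions had ED coverage alone, 24.1% had EtOH coverage alone, and 52.8% had both. Over the regions covered in both columns rho was 0.416.

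Averaged over neighbouring regions, the marks followed each other more closely. Over 11147 windows of 100 kb with at least 5 regions, rho was 0.670 between ED and EtOH, against 0.743 between ED and ET and 0.913 between EtOH and 4HT. By chromosome, leaving out chromosome Y with its 21 regions, rho for ED and EtOH ran between 0.459 on chromosome 5 and 0.526 on chromosome 16. Chromosome X had 0.504, within that range.

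The agreement was uneven between kinds of region. Regions were called promoters where a TSS lay within 1 kb (18708 regions) and distal otherwise, either within a gene span (52894) or outside all of them (56044). The rho of ED with EtOH was 0.449 in promoters, 0.454 in distal regions within genes and 0.524 in distal regions outside genes. TD and 4HT, another H2BK120ac and another H3K27ac column, gave 0.618 in promoters, 0.418 within genes and 0.432 outside them. Promoter regions were wider, with a median of 603 bp against 233 bp for distal regions. Among regions over 400 and up to 1000 bp wide the order was the same, with rho 0.410 in promoters and 0.562 in distal regions for ED with EtOH, and 0.592 and 0.472 for TD with 4HT.

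The highest ED regions lay away from promoters. Of the 1276 regions in the ED top 1%, 9 were promoters (0.705%), while 123 of the EtOH top 1% were (9.64%). Promoters made up 14.7% of all regions. Most of the ED top 1% (74.7%) lay outside genes, and 40.7% lay over 100 kb from any TSS, against 57.2% and 13.9% of the EtOH top 1%. ET had 13 promoters in its top 1% (1.02%), close to ED, while TD had 271 (21.2%) and TT had 277 (21.7%), above EtOH. Within regions of 200 to 400 bp the ED share was 0.885%, and within 400 to 1000 bp it was 0.958%. A promoter is often wide, and the deposited value appears to be a mean over bases, in H3K27ac over covered bases only. How H2BK120ac was averaged is not known, so value times width need not be total signal or a like measure in both marks. When values were multiplied by region width, promoters made up 13.2% of the ED top 1% and 33.3% of the EtOH top 1%, with ED below EtOH on both scales.

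**Figure D1:**
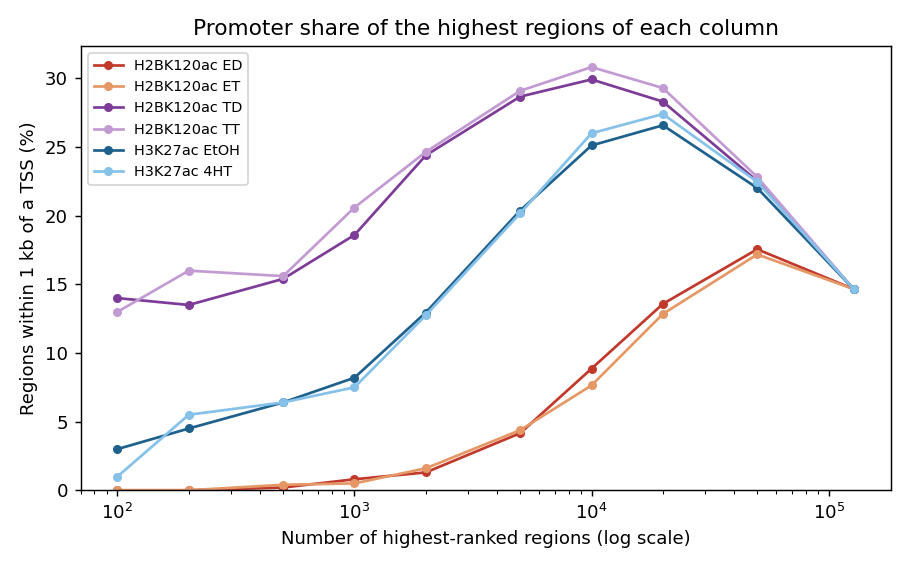
Share of promoters (regions within 1 kb of a TSS, in %) among the highest-ranked regions of each merged column, against the number of regions taken (log scale). ED and ET lie below EtOH and 4HT, which lie below TD and TT, up to 20000 regions, and all lines meet at 14.7% when every region is taken.

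At like H3K27ac rank, ED H2BK120ac was higher in distal regions than in promoters. Among regions at EtOH percentiles of 90 to 95, 15.6% of 1922 promoters and 41.7% of 4461 distal regions were in the ED top 10%. At percentiles of 95 to 99 the shares were 30.6% of promoters and 66.4% of distal regions. In the top 1% of EtOH they were 69.9% of 123 promoters (exact 95% interval 61.0 to 77.9%, counting regions only) and 91.4% of 1153 distal regions (89.6 to 93.0%). Among regions of 400 to 1000 bp at percentiles of 95 to 99, the shares were 29.7% of promoters and 70.6% of distal regions. ET behaved like ED, with 28.5% of promoters and 66.5% of distal regions at percentiles of 95 to 99 over all widths. TD had the opposite order, with 71.2% of promoters and 44.0% of distal regions, and so had TT, with 72.6% and 41.5%. Over the whole EtOH top 10%, promoters were in the ED top 10% less often than distal regions by 34.4 percentage points (23.4% and 57.8%). The gap was 4.86 points where values were multiplied by width, a scale with the limit on averaging given above. IgG background columns were not used here, so how far background coverage enters the ED profile was not examined.

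**Figure D2:**
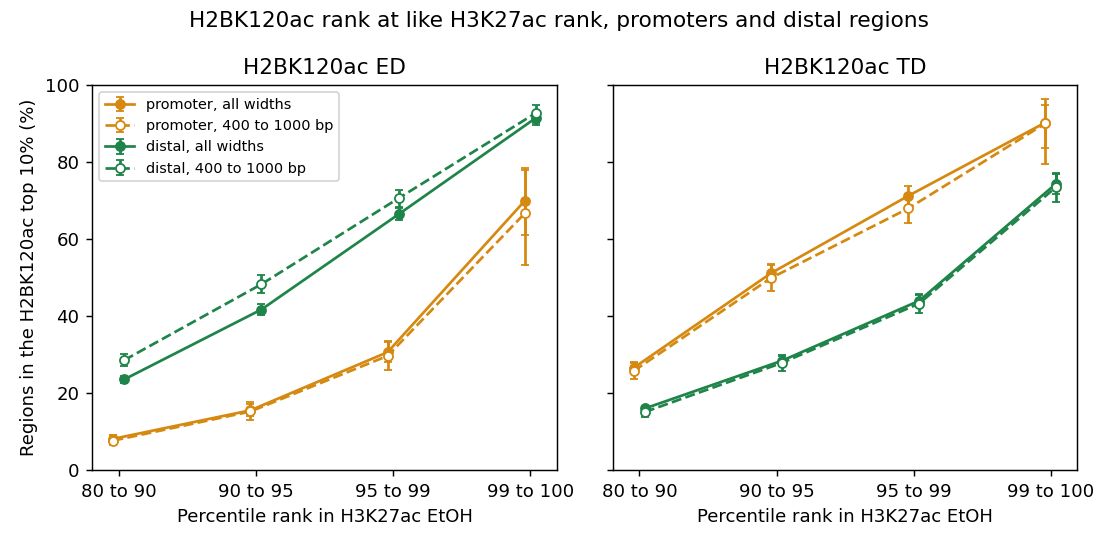
Percentage of regions in the H2BK120ac top 10% against their percentile class in H3K27ac EtOH, for ED (left) and TD (right), in promoters and distal regions of all widths (filled) and of 400 to 1000 bp (open). Bars are exact 95% binomial intervals that count regions only, and the distal lines lie above the promoter lines in ED and below them in TD.

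The same contrast showed along the distance from a TSS. The share of regions in the ED top 10% was 8.16% where a TSS lay inside the region, 5.90% at 1 to 250 bp, 5.70% at 251 to 1000 bp, 9.88% at 1001 to 5000 bp and 11.0% beyond 100000 bp. The EtOH shares in the same classes were 20.6%, 13.2%, 12.3%, 12.7% and 5.59%. ED was lowest at 1 to 1000 bp from a TSS, and EtOH was highest with a TSS inside and lowest far away. Within regions of 200 to 400 bp, the ED share was 5.22% with a TSS inside, 5.18% at 1 to 250 bp, 9.75% at 1001 to 5000 bp, its highest, and 9.30% beyond 100000 bp. The EtOH share in these classes was 12.5%, 12.1%, 12.7% and 4.23%.

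**Figure D3:**
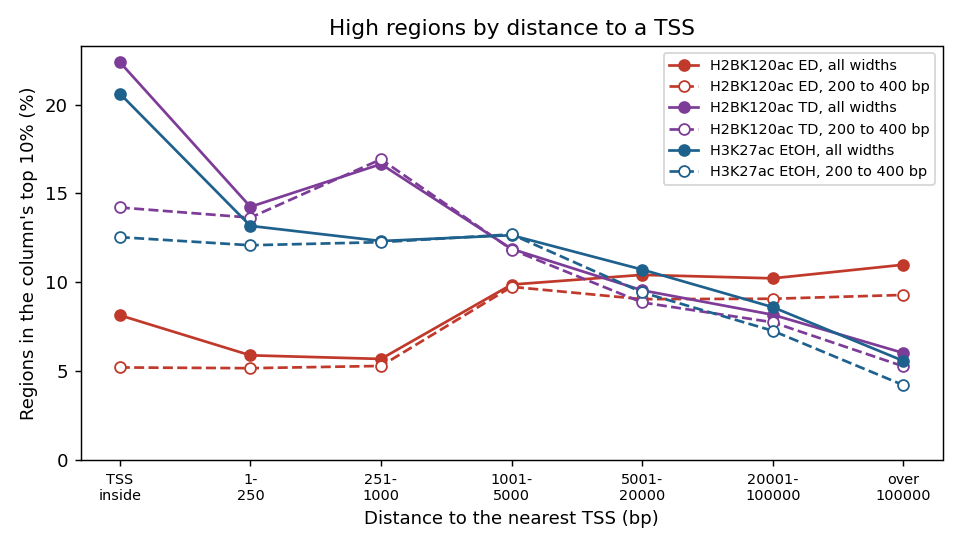
Percentage of regions in the top 10% of ED H2BK120ac, TD H2BK120ac and EtOH H3K27ac by distance to the nearest TSS in bp, for all widths (filled) and for regions of 200 to 400 bp (open). The ED lines are lower at 1 to 1000 bp from a TSS than beyond it, while the TD and EtOH lines are lowest beyond 100000 bp.

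The share of TSS regions in the ED top 10% did not follow CpG content, while the EtOH and TD shares did. RefSeq start sites on GRCm38.p6 gave a 300-base sequence for 10514 of the 12383 regions with a TSS inside (84.9%), and these were ranked by their number of CpG into 4 groups of equal size with medians of 9, 18, 25 and 35. In ED the share of regions in the top 10% was 7.61%, 8.22%, 7.91% and 7.95% from the group with the fewest CpG to that with the most, a range under 1 point. Below the top, ED did follow CpG content, with mean percentiles of 53.9, 58.9, 60.9 and 62.4 and coverage in 70.0%, 79.3%, 82.4% and 85.6% of the regions. In EtOH it was 15.6%, 20.3%, 24.1% and 24.2%, and in TD 15.3%, 21.3%, 26.2% and 27.8%, both highest in the group with most CpG. Regions widened over the groups too, with median widths of 602, 763, 844 and 970 bp. In regions of 400 to 1000 bp the groups with the fewest and the most CpG had 8.03% and 6.89% in ED, 16.7% and 25.7% in TD, and 17.2% and 23.2% in EtOH, and their mean ED percentiles were 55.9 and 59.3.

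Short promoter motifs, searched as exact letters on both strands of the 300 bases, were counted in promoters of high and of low ED rank. GGGCGG, the core of the Sp1 site, was in 68.8% of these promoters and in 35.7% of all 32851 in the RefSeq table. It was in 68.0% of the 491 TSS regions in the top 10% of both marks and in 65.0% of the 317 in the EtOH top 10% and below percentile 50 in ED. CCAAT, the letters bound by NF-Y, was in 37.1% of the 491 regions and in 46.7% of the 317, beside 38.4% of promoters with a region and 37.4% of all in the table. TATAAA, the TATA box, was in 7.74% of the 491 and 5.68% of the 317, beside 6.18% of promoters with a region and 13.6% of all. Among the promoters printed above, GGGCGG was in Klf2, Zfp42 and Rpl13, and CCAAT was in Zfp42, Ezh2 and Rpl13.

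The regions with at least 5 fragments were a list of different length in each mark, so their shares below are not a comparison of the marks. Of 2378 regions with at least 5 ED fragments, 79.5% were in the EtOH top 10% and 99.8% had EtOH coverage. Of 14487 regions with at least 5 EtOH fragments, 46.2% were in the ED top 10% and 95.2% had ED coverage. That second share was 21.8% of 3823 promoters and 54.9% of 10664 distal regions. The top lists of the marks shared 413 of 1276 regions at 1% (32.4% of each list), 2863 of 6382 at 5% (44.9%) and 6226 of 12765 at 10% (48.8%). ED shared 59.5%, 58.6% and 55.6% of the same lists with ET.

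Of all regions, 4.88% were in the top 10% of both marks. These 6226 regions had a median width of 443 bp and a median value of 1.64 in ED and 1.95 in EtOH, and 12.6% were promoters, 34.9% lay in genes and 52.5% outside them. ET had 74.5% of them in its top 10% and 4HT had 87.0%.

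The 10 regions of highest mean rank in both marks were all distal, between 25582 and 1154874 bp from the nearest TSS, and all were also in the top 10% of each of the other 4 columns. The highest was chr8:19784839-19784972, 134 bp wide and outside any gene, with H2BK120ac values of 18.5 (ED), 16.7 (ET), 22.2 (TD) and 26.7 (TT) and H3K27ac values of 48.5 (EtOH) and 63.1 (4HT). It was the only region in the top 0.1% of all 6 columns, with both antibodies. A second region beside it, chr8:19784561-19784750, had 8.62 in ED and 17.0 in EtOH. The region chr1:24613019-24613216, whose nearest TSS is that of the collagen gene Col19a1, had 11.4 in ED and 18.5 in EtOH. It was also high in ET (11.7), TD (11.5), TT (8.99) and 4HT (13.7). With the IgG columns not used, how far background coverage enters regions high in every column was not tested.

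Other regions of this set were high in ED and EtOH but lower in TD. The region chr8:56252200-56252972, nearest to Hpgd, which encodes a prostaglandin dehydrogenase, had 10.6 in ED and 8.79 in ET, only 2.10 in TD and 1.14 in TT, and H3K27ac values of 8.06 in EtOH and 9.83 in 4HT. The region chr12:72011453-72012013, nearest to the receptor gene Gpr135, had 10.2 in ED and 6.97 in ET, below that 3.33 in TD and 4.00 in TT, and 9.29 in EtOH and 10.6 in 4HT. The region chr9:17557423-17558550, 733717 bp from the TSS of Chordc1, had 10.1 in ED and 9.05 in ET, with 2.24 in TD and 3.08 in TT, beside 8.07 in EtOH and 10.5 in 4HT.

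Pluripotency genes carried both marks at distal regions. The strongest region within 50 kb of each naive pluripotency gene had a median percentile of 94.2 in ED and 96.5 in EtOH over 15 genes, beside 70.1 and 68.3 over 14910 genes. Of the 15, 9 were in the ED top 10% (21.8% of all genes), 9 in the EtOH top 10% (18.7% of all genes) and 8 in both (12.9% of all genes). Klf2, a factor of the naive state, had its strongest distal region at chr8:72335431-72335542 with 4.52 in ED, about 10 fragments, no coverage in TD, and 8.62 in EtOH. Tet2, which oxidises methylcytosine, had 2.93 in ED, 0.645 in TD and 7.22 in EtOH at chr3:133524431-133525456. Prdm14, a repressor of differentiation genes, had 3.10 in ED, 0.747 in TD and 4.34 in EtOH at chr1:13084639-13085602. ED was above TD in these 3 regions and in 10 of the 15 in all, beside 60.8% of all genes; the regions were chosen by their ED and EtOH ranks, and Esrrb, a nuclear receptor gene, had 1.36 in ED and 5.62 in TD. Zfp42, also known as Rex1, had 2.67 in ED, 2.23 in TD and 5.32 in EtOH at chr8:43320500-43321325.

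The general pluripotency genes had like values, with distal medians of 94.7 in ED and 96.8 in EtOH over 12 genes and 7 in the top 10% of both (12.9% of all genes). Nanog, a homeobox factor, had 2.66 in ED, 6.28 in TD and 9.01 in EtOH at chr6:122702292-122703236. Pou5f1, which encodes OCT4, had 2.62 in ED, 1.53 in TD and 14.9 in EtOH at chr17:35503875-35504382, 1650 bp from its TSS. Sox2, its partner, had 0.445 in ED, the value of 1 fragment, and 1.04 in EtOH in the region within 50 kb that ranked highest over both marks.

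At promoters the median difference of ED minus EtOH percentile was -7.26 points over the naive genes, close to the -7.65 points over all genes with a promoter region. Of 16 naive genes, 6 were in the ED top 10% (9.14% of all promoters), 8 in the EtOH top 10% (20.1% of all promoters) and 5 in both (5.3% of all promoters). Klf2 had 1.60 in ED and 5.54 in EtOH at its promoter, Zfp42 had 1.35 and 3.40, and Fgf4, a growth factor gene, had 0.974 and 1.94. Nr0b1, an X-linked nuclear receptor gene, was the reverse in rank, with 1.25 in ED (percentile 94.1) and 0.591 in EtOH (percentile 83.3). Other naive genes were low: Dppa3 had no ED coverage and 0.165 in EtOH, the value of 1 fragment. Esrrb had the same EtOH value, with 0.661 in ED, about 1 fragment. Klf4, Prdm14 and Stat3 each had 0.445 in ED, the value of 1 fragment. Tdgf1, a co-receptor of Nodal, was the highest promoter of the general list in ED, with 2.22 in ED and 6.14 in EtOH. At such depth a single ED value is loose: the 4 fragments at the Klf2 promoter allow percentiles of 71.8 to 99.7 (exact 95% Poisson interval, counting error only), while the 34 EtOH fragments allow 99.1 to 99.9.

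Genes of broad expression had ED ranks well below their EtOH ranks at promoters. Promoters of high EtOH rank had such a gap in general. The 1922 promoter regions at EtOH percentiles of 90 to 95 had a median ED percentile of 75.4. The strongest promoter regions of 18 cytosolic ribosomal protein genes had a median percentile of 71.4 in ED and 92.8 in EtOH, with 0 in the ED top 10% (9.14% of all promoters), 13 in the EtOH top 10% (20.1%) and 15 in the TD top 10% (21.5%). Per gene the median difference of ED minus EtOH percentile was -21.6 points. Rpl13 had no ED coverage against 2.20 in EtOH. Rpl4 had 0.537 in ED, 5.53 in TD and 3.16 in EtOH. Rpl27, at percentile 87.3, was the highest of the list in ED, with 0.848 in ED and 1.60 in EtOH. The 13 housekeeping genes had medians of 59.2 in ED and 93.3 in EtOH, with a median difference of -22.2 points per gene. Gapdh had 0.445 in ED and 1.90 in EtOH, the chaperone gene Hspa8 had 0.577 and 3.25, and the ubiquitin gene Ubb had 0.663 and 3.40. Of the 13, 1 was in the ED top 10% (9.14% of all promoters). That was Hsp90ab1, another chaperone gene, with 0.965 in ED and 1.54 in EtOH. The ED counts of 0 of 18 and 1 of 13 come from too few genes to be set apart from the background.

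The 9 histone acetyltransferase genes had promoter medians of 72.3 in ED and 93.7 in EtOH, with a median difference of -21.4 points per gene. That ED median was near the 75.4 of all promoter regions at EtOH percentiles of 90 to 95. Ep300, which encodes p300, had 0.465 in ED and 2.28 in EtOH, while Kat2b, which encodes PCAF, had 1.21 and 3.87. For 11 Polycomb complex genes the promoter medians were 59.2 in ED and 92.2 in EtOH, but the median difference per gene, -9.96 points, was near the -7.65 of all genes. Their distal medians over 9 genes were 93.5 in ED and 93.6 in EtOH, with 6 in the top 10% of both (12.9% of all genes). Suz12, a core subunit of Polycomb repressive complex 2, had 0.629 in ED and 2.79 in EtOH at its promoter, but 3.75 in ED and 3.08 in EtOH at a region 12208 bp away, where TD had 0.655. Ezh2 and Eed were in the top 10% of both marks at the promoter (5.3% of all promoters), with 1.28 in ED and 2.04 in EtOH for Ezh2 and 1.46 and 3.10 for Eed. Bmi1 and Cbx2, subunit genes of Polycomb repressive complex 1, ranked higher in ED than in EtOH, each on about 1 fragment in each mark.

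The 9 genes for H2B ubiquitin enzymes and their cofactors had promoter medians of 59.2 in ED and 85.6 in EtOH. These enzymes attach or remove ubiquitin on the same lysine of H2B. Of the 9 genes, 1 was in the top 10% of both (5.3% of all promoters). That was Ube2b, encoding the conjugating enzyme RAD6B, with 1.14 in ED and 2.09 in EtOH. The 9 deacetylase and acetyl-reader genes had promoter medians of 73.7 in ED and 89.2 in EtOH, and 2 were in the top 10% of both (5.3% of all promoters). Hdac2, a deacetylase gene, had 2.28 in ED and 2.92 in EtOH, while Brd2, a bromodomain reader gene, had 2.11 in ED and 10.3 in EtOH. The immediate early genes, which respond to growth signals, were closer at promoters, with medians of 77.7 in ED and 84.7 in EtOH over 10 genes. Their distal medians were 91.4 in ED and 90.3 in EtOH over 9 genes, with 4 in the top 10% of both (12.9% of all genes). Atf3, a stress-induced factor gene, had 3.50 in ED and 1.20 in EtOH at chr1:191190017-191190417.

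The p53 target genes had promoter medians of 76.3 in ED, 99.4 in TD and 92.7 in EtOH over 12 genes. Ccng1, encoding cyclin G1, had 2.12 in ED, 27.1 in TD and 3.55 in EtOH, and Bbc3, encoding the death factor PUMA, had 1.56, 19.8 and 2.18. Of the 12, 4 were in the ED top 10% (9.14% of all promoters), 8 in the EtOH top 10% (20.1%) and 12 in the TD top 10% (21.5%). Ccng1 and Bbc3 were among the 4, on about 5 and 4 ED fragments. Their ED levels were far below those of the TD column of the same table.

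**Figure D4:**
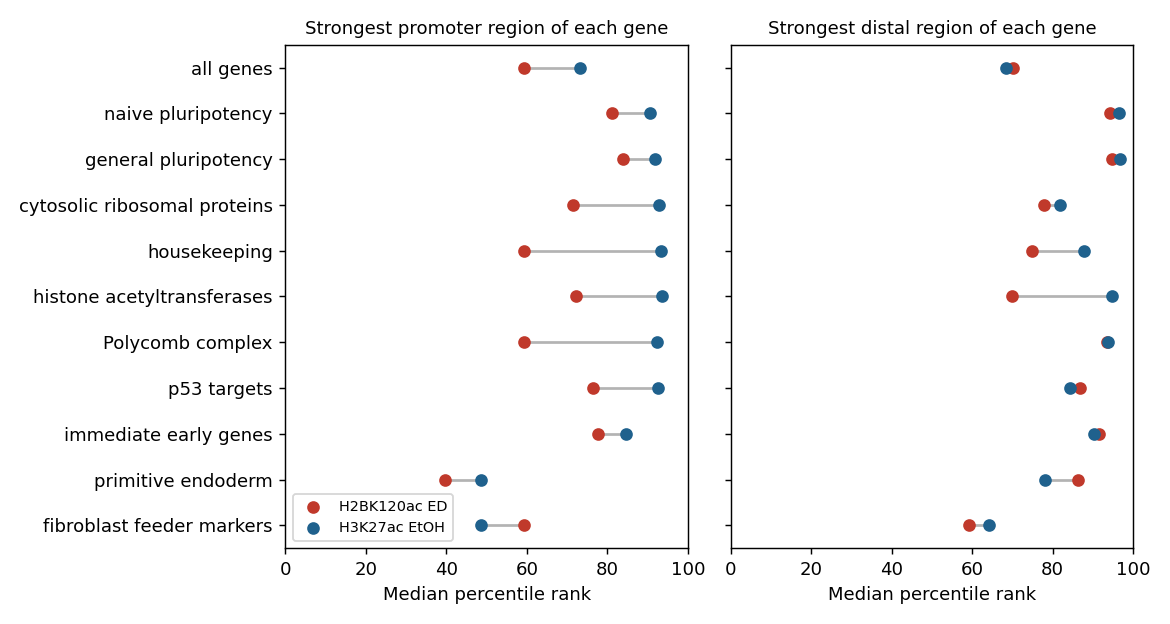
Median percentile rank of ED H2BK120ac and EtOH H3K27ac over the genes of each list, at the strongest promoter region (left) and the strongest region within 50 kb that is not a promoter (right) of each gene. The marks lie apart at the promoters of ribosomal, housekeeping, acetyltransferase and Polycomb genes, and less so over all genes. They lie close together at distal regions of the pluripotency and Polycomb lists.

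Genes of other lineages ranked low in EtOH at their promoters by median, and a few were in the ED top 10%. Primitive endoderm genes had promoter medians of 39.7 in ED and 48.5 in EtOH over 8 genes. Of the 8, 1 was in the ED top 10% (9.14% of all promoters). That was Gata6, a factor of that lineage, with 1.22 in ED, about 3 fragments, and 0.176 in EtOH, about 1. Their distal regions had medians of 86.3 in ED and 78.1 in EtOH over 11 genes, and Lama1, a laminin gene, had 2.18 in ED and 0.471 in EtOH. Neuroectoderm genes had promoter medians of 43.1 in ED and 34.8 in EtOH over 10 genes. None was in the top 10% of ED (9.14% of all promoters) or of EtOH (20.1%), and 10 genes are too few to set this count apart from the background. Trophectoderm genes had promoter medians of 59.2 in ED and 51.5 in EtOH over 9 genes, with 1 in the ED top 10%, Cdx2. Mesendoderm genes had 53.8 and 49.7 over 10 genes, with 2 in the ED top 10%, Gsc and T. Cdx2, Gsc and T each had about 2 ED fragments. The ED counts of the primitive endoderm, trophectoderm and mesendoderm lists are likewise too small to be set apart from the background. Formative and primed pluripotency genes had 70.4 in ED and 70.0 in EtOH over 11 promoters.

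Foxd3, the gene the cells can lose, had 20 regions within 50 kb for which it was the nearest gene, of which 9 were in the top 10% of both marks (4.88% of all regions). A group of regions about 20 kb before the TSS ranked high in both, 1 of them only at percentile 81.0 in ED. Of these, chr4:99635952-99636655 had 1.91 in ED and 2.55 in EtOH, and chr4:99636741-99637075 had 1.53 and 2.94. About 14 kb past the TSS, chr4:99670116-99670739 had the highest values of the locus, 2.17 in ED and 3.03 in EtOH. The promoter regions differed from these: chr4:99655987-99656129, 170 bp from the TSS, had no ED coverage and 1.02 in EtOH, and a region 978 bp from the TSS had no ED coverage and 0.224 in EtOH. None of the 20 regions reached 5 ED fragments and 11 reached 5 EtOH fragments.

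**Figure D5:**
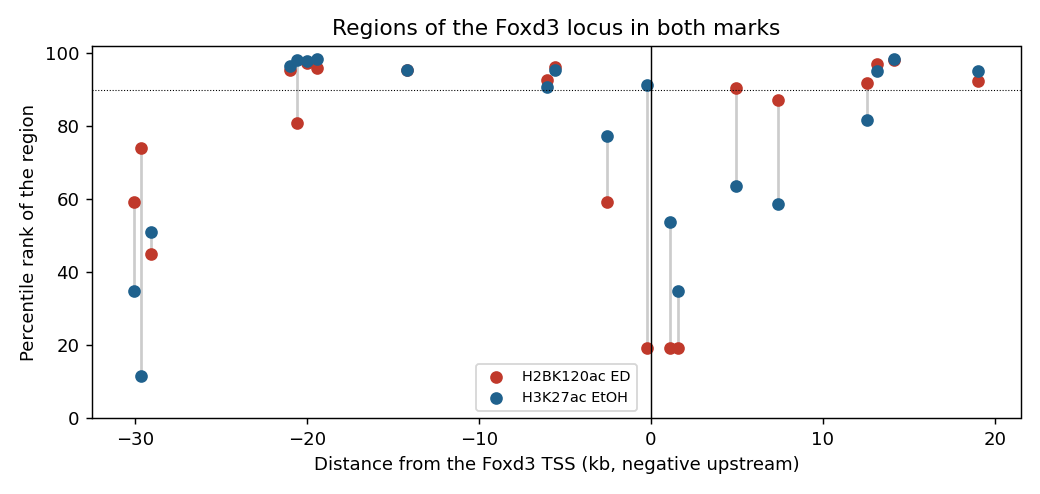
Percentile rank of the 20 regions nearest to Foxd3 in ED H2BK120ac and EtOH H3K27ac against their distance from its TSS in kb, with the top 10% above the dotted line. The marks lie together about 20 kb before the TSS and 14 kb past it, and apart at the TSS, where ED has no coverage. Intervals from counting error are not drawn and are wide in ED.

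Regions high in 1 of the ED and EtOH columns and low in the other were few. Of all regions, 1337 (1.05%) were in the EtOH top 10% and below percentile 50 in ED, of which 40.4% were promoters. Their median value was 0.222 in ED and 1.23 in EtOH, and 18.8% were in the ET top 10%. For the strongest promoters of genes the share was 2.35% (318 of 13559), with 2 ribosomal protein genes of 18, Rpl13 and Rps2. The highest of these regions was chr17:35504815-35505017, 1015 bp from the TSS of Pou5f1, with 0.373 in ED, against 3.46 in ET and 1.06 in TD, and 5.86 in EtOH. It lies beside the strong distal region of Pou5f1 named above, and its ED value, about 1 fragment, allows 0.0113 to 2.48, which overlaps the 0.980 to 5.81 of that neighbour (exact 95% Poisson intervals). A region in Ddx6, an RNA helicase gene, at chr9:44605100-44605265 had no ED coverage, with 0.176 in ET but 3.20 in TD, and 5.40 in EtOH. The promoter regions among the 10 highest were those of Rnf138 and Rnf7, both ubiquitin ligase genes, and Phc1, a Polycomb subunit gene. Rnf7 had 0.304 in ED beside 1.30 in ET and 3.85 in TD, and 4.34 in EtOH. Of the 10 highest regions, 6 were in the top 10% of ET, so low ED did not always mean low H2BK120ac in the other columns.

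Of all regions, 1220 (0.956%) were in the ED top 10% and below percentile 50 in EtOH, of which 4.67% were promoters and 53.03% lay outside genes. Only 22 of them reached 5 ED fragments, and 19.6% were in the ET top 10%. The highest was chr4:153233843-153234108, outside any gene and nearest to Ajap1, with 4.22 in ED, 1.14 in ET and 0.412 in TD, against 0.165 in EtOH. A region in the immune gene Cd86, chr16:36613809-36614003, had 3.12 in ED, 1.38 in ET and 0.412 in TD, against 0.165 in EtOH. A region in the ephrin receptor gene Epha6, chr16:59946849-59947040, had 3.04 in ED, 0.558 in ET, and no coverage in TD or EtOH. The 10 highest regions of this kind had 2.59 to 4.22 in ED, 0.558 to 3.85 in ET and at most 0.193 in EtOH, and none was a promoter. In 4HT, the other H3K27ac column, they had 0 to 1.61, and 3 of them were in its top 10%.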

How the data were processed

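The deposited tables give coverage signal of CUT&Tag libraries, named as CPM in the table titles, in regions whose table names also carry ATAC. The authors merged the samples of a group into 1 column, so samples could not be compared. The submitters' processing notes name mm10, and for H3K27ac featureCounts and DESeq2 without a role; how reads were aligned and coverage made is not stated. An absent value was set to 0. No H3K27ac value lay below 1 fragment, so bases without coverage appear to be left out of its means, which raises sparsely covered regions. H2BK120ac values reach down to 0.25 of the commonest value, so how they were averaged, and whether that value is 1 fragment, is not known. A further 16 value columns named IgG match no sample and were not used.

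Ranks, Spearman's rho and overlaps were computed with Python 3.11.15, pandas 2.3.3, NumPy 2.4.6 and SciPy 1.17.1, and checked on simulated columns. A fragment number is the value over that of 1 fragment, with exact 95% Poisson intervals that cover counting error only. TSS were RefSeq starts on GRCm38.p6 for 17491 of 21883 protein-coding genes, and for 3995 the end of the gene span nearest to the centre of a deposited 5 kb TSS window, whose positions the authors deposited as coordinates (unit other). A region was named by the nearest TSS. A gene's promoter region (within 1 kb) or distal region (within 50 kb) was the one of highest mean percentile in both marks. Named are the 10 highest regions in both marks, the 10 highest in each mark below percentile 50 of the other, the Foxd3 regions, and high and low members of 20 gene lists. Members, lists and thresholds were chosen with earlier results of these data known. RefSeq gives no exons here, so only gene spans are reported.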

Additional observations from a re-analysis of the deposited data

How the results depend on the processing

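No paired analysis was possible because the replicates of a group are merged in 1 column, which also leaves no replicate to leave out and no p-value. The planned partial correlation given a background column was not run. The alternatives for the promoter shares of the top 1% and for the difference between promoters and distal regions were chosen after seeing the data. The cause of each change below was not tested. Value times width need not be total signal, because bases without coverage appear to be left out of the H3K27ac means.

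Spearman's rho of ED with EtOH, 0.494, was 0.416 over regions covered in both columns, 0.320 over regions with 5 fragments in either, 0.628 for value times width, 0.426 for widths of 200 to 400 bp and 0.449 in promoters. The share of the EtOH top 5% in the ED top 5%, 44.9%, was 40.6% over regions covered in both, 26.3% over regions with 5 fragments in either and 53.2% for value times width, and 32.4% and 48.8% for the top 1% and 10%. The median ED percentile of promoters minus that of distal regions, 10.9, was -1.44 over regions covered in both, -27.2 over regions with 5 fragments in either, 28.1 for value times width and 0.184 for widths of 200 to 400 bp, so its sign is not settled. The same difference in EtOH, 34.3, was 15.1, -5.60 and 23.3 in the first, second and last of these settings, and 24.2 with promoters within 500 bp.

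The count of regions in the ED top 10% and below percentile 50 in EtOH, 1220, was 726 over regions covered in both, 114 for value times width and 297 for a top 5%. The count in the EtOH top 10% and below percentile 50 in ED, 1337, was 724, 463 and 369 in the same settings. The difference between promoters and distal regions in the ED top 10% share within the EtOH top 10%, -34.4 points, was -40.6 over regions covered in both, -4.86 for value times width, -27.9 and -45.6 for widths of 200 to 400 and 400 to 1000 bp, -33.3 with promoters within 500 bp and -39.4 with ET and 4HT. The promoter share of the ED top 1%, 0.705%, was 13.2% for value times width. That of the EtOH top 1%, 9.64%, was 7.27% over regions covered in both, 33.3% for value times width, and 6.86% and 7.35% for the narrower and the wider class. Of 52 alternatives, 17 left the value within a set range, 32 moved it further and 3 turned its sign. The range was the 95% interval for a rho or a share, 1 point for a difference and 1.5 times for a count. These intervals take regions as independent, which neighbouring regions of merged columns are not. They are therefore too narrow, and the 3 counts of alternatives are only a guide.

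Depth limits the ranks: the value of 1 fragment lies at percentile 59.2 in ED and 34.8 in EtOH, so orders below the top ranks of ED are loose.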
